A study of Homo sapiens with 4 samples.

Results

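The genes of the proteasome were represented by 50 spots for 40 genes, among 29640 non-control spots and 12222 named genes. They were chosen by the symbol that the platform annotation gives a spot (PSMA, PSMB, PSMC, PSMD, PSME, PSMF or PSMG followed by digits). This rule uses no measured value, though it was set with earlier results of these data known. DLD-1 and HT-29 are established human colorectal cancer cell lines, and the series looked for genes raised by a demethylating agent. Treated cells of both lines received 1 µM 5-aza-2'-deoxycytidine, a cytidine analogue that traps DNA methyltransferases and so lowers DNA methylation, for 96 h after 24 h of growth, and the comparison group was the same line without the drug. Treated and untreated RNA of a line were hybridised together on 2 oligonucleotide arrays, array 1 with treated RNA in Cy5 and array 2 with the dyes exchanged, so the data were 4 arrays. No separate cultures are named, and a line with its pair of arrays was treated as 1 replicate. The p-values therefore rest only on the spread between these samples, pooled over all genes, which may be technical. Precision is limited by the small number of arrays.

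The proteasome is the cell's main machine for degrading proteins marked with ubiquitin. Its core particle is a barrel of alpha rings, which gate the entry, and beta rings, which hold the proteolytic sites. A regulatory particle of ATPases and non-ATPase subunits recognises, unfolds and feeds in the substrate. Interferon-induced beta subunits and activator caps give the immunoproteasome, which favours peptides for MHC class I presentation. Dividing cancer cells, among them colorectal ones, depend on the activity of the constitutive particle.

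Of the subunits listed for each role, the spots covered 7 of 8 alpha ring genes, 7 of 7 constitutive beta ring genes, 3 of 4 immunoproteasome and thymoproteasome genes, 4 of 6 ATPases and 9 of 11 non-ATPase subunits. They also covered 3 of 3 assembly chaperones of the regulatory particle, 2 of 4 of the core, and 5 of 5 activators and inhibitors. PSMB2 had 6 spots, PSMB3 had 5 and PSMD2 had 2, and every other gene had 1. A spot entered a comparison when at least 1 channel exceeded its local background by more than 2 background SD on every array used. 37 of the 40 genes passed on all 4 arrays. PSMC4 and PSME4 passed in DLD-1 only and PSMD5 in HT-29 only, so these 3 have no value over both lines. 43 of the 50 spots were above background in both channels of all 4 arrays. The others were the spots of PSMB9, PSMC4, PSMD3, PSMD5, PSMD10, PSMD14 and PSME4, whose ratios include a dim channel on at least 1 array.

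Values are log2 ratios of file channel 2 over channel 1. On array 1 of each line, channel 2 held treated RNA. For the dye-exchanged arrays the labels list treated RNA first, whereas the columns of the files name no dye, and which channel was treated there is not settled. A working reading took channel 2 to be the treated one throughout. The main counts are also given in the labels' channel order, with the sign of array 2 turned. Counts with changed processing or with an array left out are given in the working reading only. The working reading was chosen with strongly responding genes in view. PAGE5, a cancer-testis antigen, had log2 ratios of 3.09 and 2.89 on the DLD-1 arrays and 4.0 and 3.22 on the HT-29 arrays. Its mean was 3.30 in the working reading and 0.25 in the labels' order.

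Between 22073 and 25787 spots of an array were above background in at least 1 channel. 13 of 16 colorectal epithelial markers were above background in both channels of all 4 arrays (not CDX1, CLDN3 and LGALS4), and so were 11 of 19 markers of other cell types, among them the T cell gene CD3D and the liver gene ALB, which neither line is known for. A spot above background therefore does not by itself show that its gene was expressed. Of the variance of the log2 ratios, 45.2% and 31.5% went with the printed block (48 per array) on DLD-1 arrays 1 and 2, and 23.2% and 49.7% on HT-29 arrays 1 and 2. Its part in the values of the proteasome genes was examined only by setting the block medians equal.

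The promoters of 3 genes are shown because the drug lowers DNA methylation at CpG pairs and because these genes had the outermost values in the working reading, though none passed the test. There PSMD6 had the highest mean ratio of the 37 genes, PSMD9 the lowest, and PSMB3 alone was positive on all 4 arrays. With the labels' channel order PSMD12 was highest and PSMD4 lowest, and PSMB3 was not among the 11 genes positive on all arrays. The sequences are the 250 bases before the gene's start from RefSeq (GRCh38.p14), 5′ to 3′ on the gene's strand, with each CpG pair in capitals. PSMB3 lies at chr17:38752491-38752740 (plus strand), PSMD6 at chr3:64023495-64023744 (minus strand) and PSMD9 at chr12:121888540-121888789 (plus strand).
PSMB3: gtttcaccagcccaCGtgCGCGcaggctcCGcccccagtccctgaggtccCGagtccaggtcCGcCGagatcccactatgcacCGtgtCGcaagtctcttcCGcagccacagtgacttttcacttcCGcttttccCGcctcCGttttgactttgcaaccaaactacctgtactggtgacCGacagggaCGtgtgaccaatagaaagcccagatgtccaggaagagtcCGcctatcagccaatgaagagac
PSMD6: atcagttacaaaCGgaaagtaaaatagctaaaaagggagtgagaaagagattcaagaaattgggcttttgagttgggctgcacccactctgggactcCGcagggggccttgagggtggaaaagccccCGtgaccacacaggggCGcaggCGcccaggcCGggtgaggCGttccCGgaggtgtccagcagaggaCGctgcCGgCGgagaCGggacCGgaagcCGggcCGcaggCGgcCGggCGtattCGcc
PSMD9: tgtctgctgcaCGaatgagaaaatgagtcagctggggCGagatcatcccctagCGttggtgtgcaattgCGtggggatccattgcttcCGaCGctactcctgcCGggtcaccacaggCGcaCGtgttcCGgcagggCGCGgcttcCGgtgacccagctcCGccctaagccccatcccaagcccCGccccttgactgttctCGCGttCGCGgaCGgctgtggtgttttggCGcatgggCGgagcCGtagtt
These stretches held 16 CpG pairs for PSMB3, 19 for PSMD6 and 23 for PSMD9. Methylation itself was not analysed here.

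RefSeq windows from 250 bases before to 50 after the start matched 35 of the 40 genes. They held between 4 and 39 CpG pairs with a median of 22, against a median of 14 over all 27305 windows. Fewer than 10 pairs were found in 3 proteasome windows (8.57%), those of PSMF1 with 4 and of PSMB10 and PSMC2 with 7 each, against 44% of all windows. The core of the antioxidant response element (TGACNNNGC, searched on both strands), which the transcription factors NFE2L1 and NFE2L2 are known to bind, was present in 13 of 35 proteasome windows (37.1%) and in 13.6% of all windows. PSMB3 had 1 match, starting at base 147 of the printed sequence, PSMD9 had 2, at bases 102 and 149, and PSMD6 had none. The letters CCGGAAG, a form of the site of ETS factors, stood on either strand in 9 proteasome windows (25.7%) and in 10.7% of all. The motifs overlapped in 0 proteasome windows. Among genes tested in both lines, the median of the mean log2 ratio was 0.10 for the 10 with the antioxidant element and 0.06 for the 22 without it in the working reading, and 0.26 and 0.32 in the labels' order. These are letter matches and do not show binding. The shares over all windows were not matched for CpG content, which was higher in the proteasome windows, and its part in the motif shares was not tested.

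**Figure D1:**
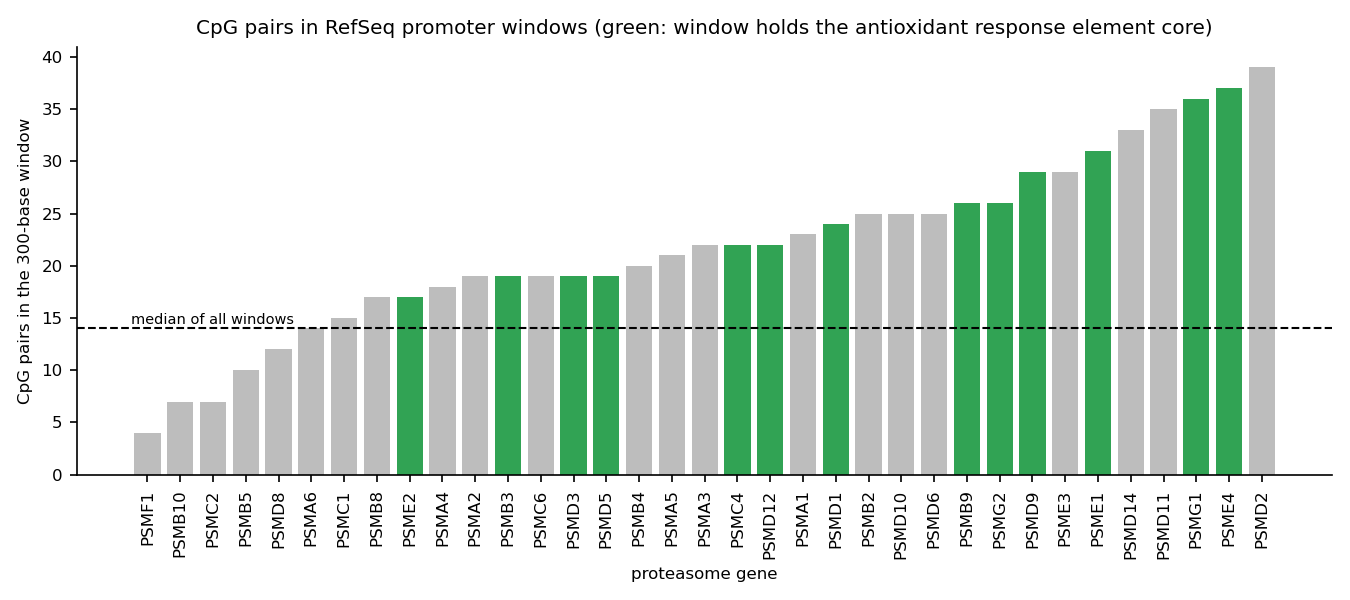
CpG pairs (vertical axis, number per 300-base window) in the RefSeq promoter windows of 35 proteasome genes, ordered from fewest to most, with the core of the antioxidant response element marked by green bars. Most windows lie above the dashed median of all windows (14), and PSMF1, PSMB10 and PSMC2 stand lowest.

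The first comparison asked whether proteasome transcripts differed after the drug on the mean of both lines. No proteasome gene passed the test in either reading. PSMD6, a subunit of the lid of the regulatory particle, had the highest mean log2 ratio in the working reading, 0.59 (1.51-fold). Its SE of 0.217 was the same for all genes tested. PSMD9, a chaperone of ATPase ring assembly, had the lowest mean, −0.47. Over the 37 genes the median of the mean ratio was 0.06, against 0.01 over the 8470 genes tested. Of the 37 means 20 were above 0, against 4323 of the 8470, a similar share. In limma on the 2 line means with Benjamini-Hochberg adjustment over all genes, 0 of 37 rose and 0 fell, against 0.189% and 0.0472% of all genes. At an unadjusted p under 0.05, PSMA3, PSMA5, PSMD6 and PSMD14 had positive means (4 of 37, against 3.20% of all genes) and PSMD9 a negative one (1 of 37, against 1.79%). The adjusted p was 0.48 for PSMD6, 0.61 for PSMD14, 0.83 for PSMD9, 0.95 for PSMA5 and 0.97 for PSMA3.

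In the labels' channel order the same genes stood higher as a group. Their median was 0.30, against 0.05 over all genes, and 33 of 37 were above 0, against 57.0% of all genes. Again 0 of 37 rose and 0 fell in the limma test, against 0.661% and 0.0236% of all genes, with 11 positive and 0 negative at an unadjusted p under 0.05 (9.19% and 1.78% of all genes). PSMD12, a lid subunit, had the highest mean of 0.76 (limma adjusted p = 0.11). When only array 1 of a line is left, with treated RNA in Cy5, dye bias is not cancelled in that line. Leaving out DLD-1 array 2 was the only removal of an array that gave calls in the working reading. Without it PSMD6 passed with a mean of 0.78 (limma adjusted p = 0.024) and PSMA3, an alpha ring subunit, with 0.74 (adjusted p = 0.031), while the counts over all genes went from 16 higher and 4 lower to 299 and 128. The other settings tried gave limma adjusted p-values from 0.38 to 1.00 for PSMD6 and from 0.36 to 1.00 for PSMA3.

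**Figure D2:**
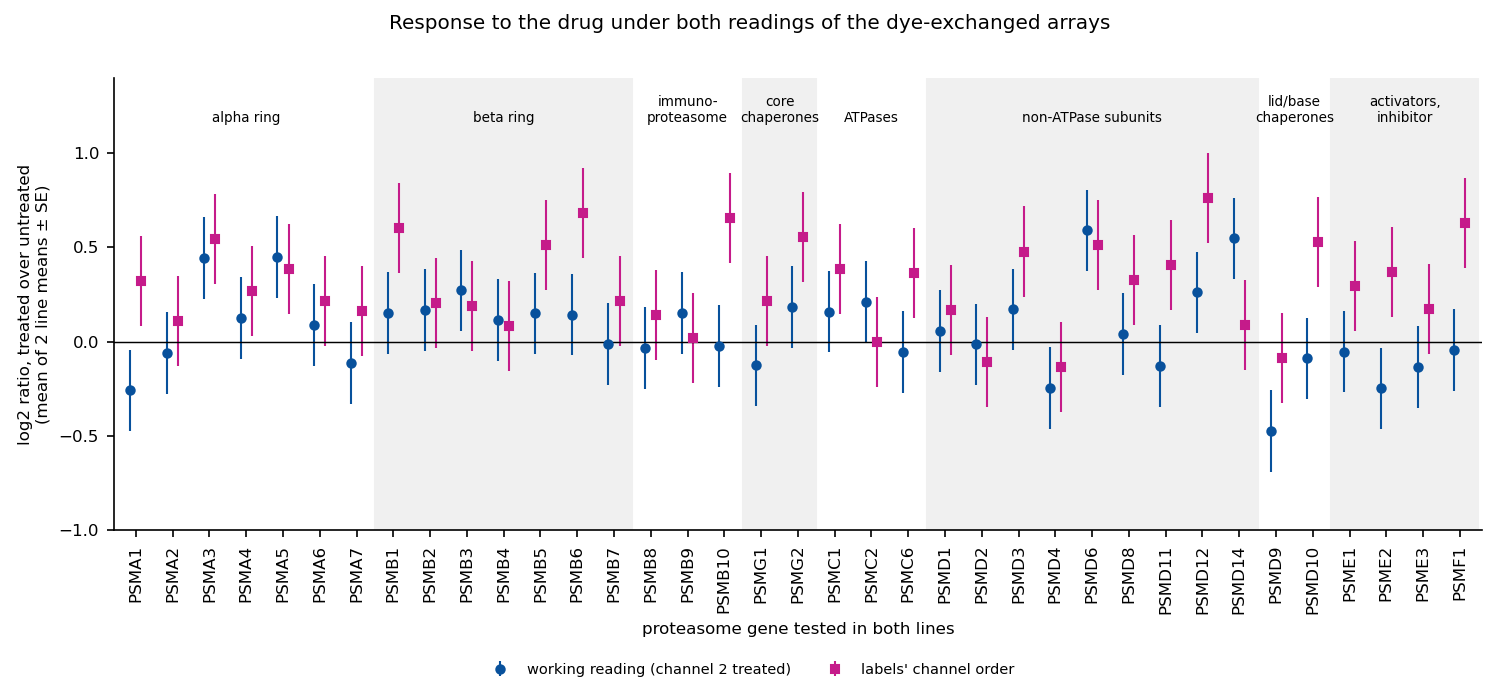
Mean log2 ratio of treated over untreated RNA of the 2 line means (vertical axis, bars ± SE from limma) for the 37 proteasome genes tested in both lines. Genes are grouped by role, with circles for the working reading and squares for the labels' channel order. The SE is the same for all genes of a reading. In the labels' order 33 of 37 lie above 0 and in the working reading 20 do, with PSMD6 highest (0.59) and PSMD9 lowest (−0.47) in the latter.

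The sign of the proteasome genes followed the array. On array 1 of DLD-1, 26 of the 37 ratios were positive, with a median of 0.19, against 53.1% of all genes and a median of 0.03. On array 1 of HT-29, 33 of 37 were positive, with a median of 0.39, against 56.7% and 0.07. On the dye-exchanged arrays only 11 of 37 were positive in each line, with medians of −0.28 (DLD-1) and −0.18 (HT-29), against 44.1% and 48.9% of all genes and medians of −0.06 and −0.02. Genes of like average signal (2165 genes, within the middle 50% of the proteasome genes' signals) had medians of −0.04, −0.03, 0.05 and 0.10 on DLD-1 arrays 1 and 2 and HT-29 arrays 1 and 2. Dye and treatment cannot be told apart on an array taken alone, and a turn of sign between the arrays of a line cancels in the mean of the working reading and adds up in the labels' order.

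Ratios of the 2 DLD-1 arrays ran against each other over the proteasome genes (r = −0.45 across the 37 genes), as they did over all 18868 probes (r = −0.45). For the HT-29 arrays r was 0.41 over the 37 genes and 0.00 over all probes, and for array 1 of both lines it was 0.42 and 0.51. Genes and probes share an array, its dyes and its printing, and are not replicates. The part that kept its sign between the 2 arrays of a line (the size of their mean) had a median of 0.13 for DLD-1 and 0.29 for HT-29 over the proteasome genes. The part that turned (the mean after the sign of array 2 was turned) had medians of 0.35 and 0.37. Over all genes the corresponding medians were 0.15 and 0.26 for the first and 0.27 and 0.22 for the second.

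**Figure D3:**
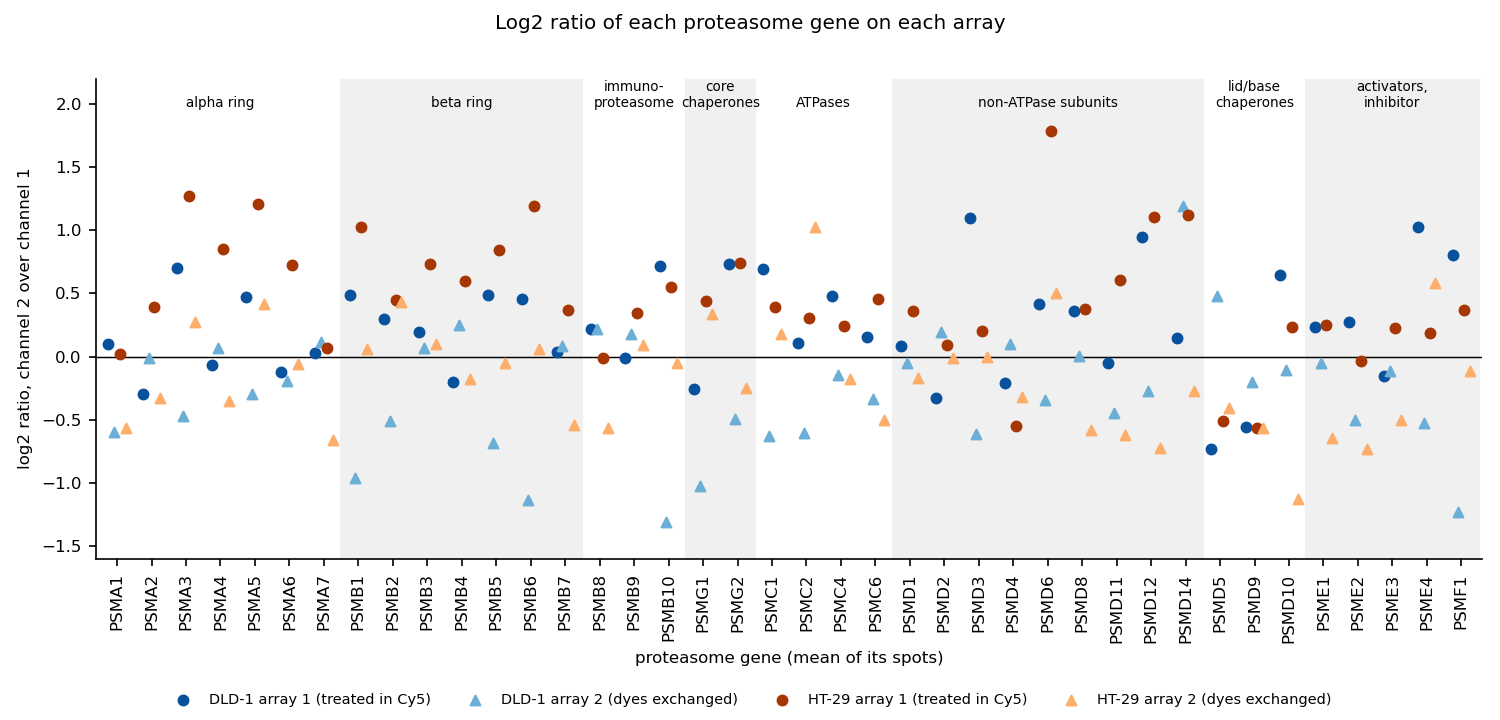
Log2 ratio of file channel 2 over channel 1 (vertical axis) of each of the 40 proteasome genes, grouped by role, on the 4 arrays, with circles for array 1 of each line (treated RNA in Cy5) and triangles for the dye-exchanged arrays. Most circles lie above 0 and most triangles below it, PSMD9 lies below 0 on all 4 arrays, and PSMC4, PSMD5 and PSME4, which were dim on some arrays, are drawn too.

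On array 1 of both lines the labels settle the direction, though dye bias is not cancelled there. No proteasome gene was at least 2-fold higher or lower on both (0 of 38, against 0.611% and 0.0218% of all genes). A total of 25 of 38 genes were positive on both arrays, against 39.8% of all genes, with PSMD6, PSMD12, PSMA3 and PSMA5 among them. PSMD4, the ubiquitin receptor of the regulatory particle, and PSMD9 were the 2 that were negative on both, against 29.1%. The median over the genes of the mean of these arrays was 0.34.

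Within each line 0 proteasome genes were at least 2-fold higher or lower on both arrays. In DLD-1 the shares over all genes were 0.168% higher and 0.0105% lower, in HT-29 0.124% and 0.0309%. There were likewise 0 in the labels' order, against 0.273% and 0.0210% in DLD-1 and 0.237% and 0% in HT-29. On 1 array taken alone, either way, 2 of 39 genes passed 2-fold on DLD-1 array 1 (4.37% of all genes) and 5 of 40 on DLD-1 array 2 (5.72%). On the HT-29 arrays 7 of 39 did so on array 1 (4.8%) and 2 of 39 on array 2 (3.51%). The 2 on DLD-1 array 1, PSMD3 and PSME4, had channel 1 not above background there. The same held for PSMD14 on HT-29 array 1, and PSMD10 had channel 2 not above background on HT-29 array 2. A single sign on both DLD-1 arrays was seen for 6 of 39 genes in the positive direction (15.6% of all genes) and 6 in the negative (17.0%). In HT-29 it was seen for 11 of 38 positive (27.9%) and 5 negative (28.4%). In the labels' order the positive counts were 22 of 39 in DLD-1 (39.3% of all genes) and 22 of 38 in HT-29 (25.8%), and the negative ones 5 (28.1%) and 0 (18.0%). Opposite signs in the lines, each held on both arrays, were seen for PSMB8 and PSMG1 in the working reading (2 of 37, against 7.87% of all genes), and for PSMA4, PSMB4 and PSMD2 in the labels' order (3 of 37, against 12.1%).

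A single sign on all 4 arrays in the working reading was shown by PSMB3 in the positive direction (1 of 37, against 4.24% of all genes) and by PSMD9 in the negative (1 of 37, against 3.65%). In the labels' order 11 genes were positive throughout, against 10.2% of all genes, and 0 negative, against 5.64%. These were PSMA1, PSMB5, PSMB10, PSMC6, PSMD1, PSMD3, PSMD10, PSMD12, PSME1, PSMF1 and PSMG2, so they came from every part of the particle and its regulators. With block medians set to 0 the genes with 1 sign in the working reading were others, PSMA5, PSMD6 and PSMD14 in the positive direction (3 of 37, against 4.83% of all genes) and PSMD4 in the negative (1 of 37, against 4.99%). With 1 array left out, 3 signs have to match, which more genes of any kind do. Without DLD-1 array 1 there were 2 positive and 2 negative genes of 38 (6.06% and 7.0% of all genes), and without DLD-1 array 2 there were 9 and 2 of 37 (23.8% and 19.3%). Removing HT-29 array 1 left 1 and 5 of 38 (6.29% and 7.42%), and removing HT-29 array 2 left 5 and 1 of 38 (9.87% and 8.66%).

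The alpha ring genes, whose products form the outer rings of the core, were all positive on HT-29 array 1 (7 of 7, median 0.73), against 56.7% of all genes. They were mostly negative on both dye-exchanged arrays (5 of 7 on each), where 44.1% (DLD-1) and 48.9% (HT-29) of all genes were positive. PSMA5 had log2 ratios of 0.47 and −0.30 on the DLD-1 arrays and 1.20 and 0.42 on the HT-29 arrays. Only the dye-exchanged DLD-1 array was below 0. Its mean over both lines was the highest of the ring in the working reading at 0.45 (limma SE 0.217, unadjusted p = 0.038) and 0.39 in the labels' order. PSMA3 was close to it, with 0.70 and −0.47 in DLD-1 and 1.27 and 0.27 in HT-29, a mean of 0.44 and 0.54 in the labels' order. PSMA1 had the lowest mean of the ring in the working reading, −0.26, from 0.10 and −0.60 in DLD-1 and 0.02 and −0.56 in HT-29. Both of its dye-exchanged values lay below both others, and its mean was 0.32 in the labels' order.

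The constitutive beta ring carries the proteolytic sites in PSMB5, PSMB6 and PSMB7. All 7 genes of the ring were positive on HT-29 array 1 (median 0.73), against 56.7% of all genes. The mean over both lines was above 0 for 6 of 7 in the working reading and 7 of 7 in the labels' order. Of all 8470 genes, 4323 and 4827 had a mean above 0 in these readings. PSMB3, a structural subunit, had 0.19 and 0.07 on the DLD-1 arrays and 0.73 and 0.10 on the HT-29 arrays, all above 0. Its mean of 0.27 was the highest of the ring in the working reading (limma SE 0.217, adjusted p = 0.99) and became 0.19 in the labels' order, where PSMB6 was highest at 0.68. PSMB7, the subunit with trypsin-like activity, had the lowest mean in the working reading, −0.01, from 0.04 and 0.08 in DLD-1 and 0.37 and −0.54 in HT-29, and 0.22 in the labels' order, where PSMB4 was lowest at 0.08. PSMB5, with the chymotrypsin-like site that proteasome inhibitors block, had 0.49 and −0.68 in DLD-1 and 0.84 and −0.05 in HT-29. PSMB6, with the caspase-like site, had 0.46 and −1.14 in DLD-1 and 1.19 and 0.06 in HT-29. For both genes each dye-exchanged value lay below each value of array 1, and their means were 0.15 and 0.14 in the working reading and 0.51 and 0.68 in the labels' order.

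PSMB2 and PSMB3, both non-catalytic beta subunits, show how far spots of 1 gene differ on 1 array. The 6 PSMB2 spots carried the same accession and lay in 5 blocks, and the 5 PSMB3 spots carried one accession and lay in 5 blocks. The SD of the log2 ratio over the PSMB2 spots was 0.38 on each DLD-1 array and 0.34 and 0.24 on the HT-29 arrays. Over the PSMB3 spots it was 0.40 and 0.37 in DLD-1 and 0.80 and 0.49 in HT-29. For comparison, the SD over the 34 proteasome genes with 1 spot was 0.39 and 0.50 in DLD-1 and 0.50 and 0.44 in HT-29. The spread between spots of 1 gene was therefore of the same order as the spread between genes. Setting block medians to 0 brought the PSMB2 spread to 0.18 and 0.31 in DLD-1 and 0.27 and 0.24 in HT-29. It brought the PSMB3 spread to 0.35 and 0.18 in DLD-1 and 0.58 and 0.26 in HT-29.

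The PSMB2 spots differed in what they showed for the 2 lines. Averaged over both dye orientations, the 6 spots lay between −0.43 and 0.09 in DLD-1, with 3 above 0, and between 0.36 and 0.54 in HT-29, with all 6 above 0. In the labels' order the HT-29 mean of the gene was 0.01 and the DLD-1 mean 0.40, so the line with the higher value depends on the reading. All 5 PSMB3 spots had a DLD-1 mean above 0, between 0.02 and 0.23, and in HT-29 4 of 5 did, between −0.16 and 0.93. On HT-29 array 1 alone the PSMB3 spots ranged from −0.15 to 1.41. These values were taken without setting block medians to 0. With that step the PSMB2 spots averaged 0.18 and −0.33 on the DLD-1 arrays, against 0.29 and −0.51 without it. On the HT-29 arrays they averaged 0.35 and −0.04, against 0.45 and 0.44 without it. The PSMB3 spots averaged 0.12 and −0.06 in DLD-1 and 0.73 and 0.27 in HT-29 with that step.

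**Figure D4:**
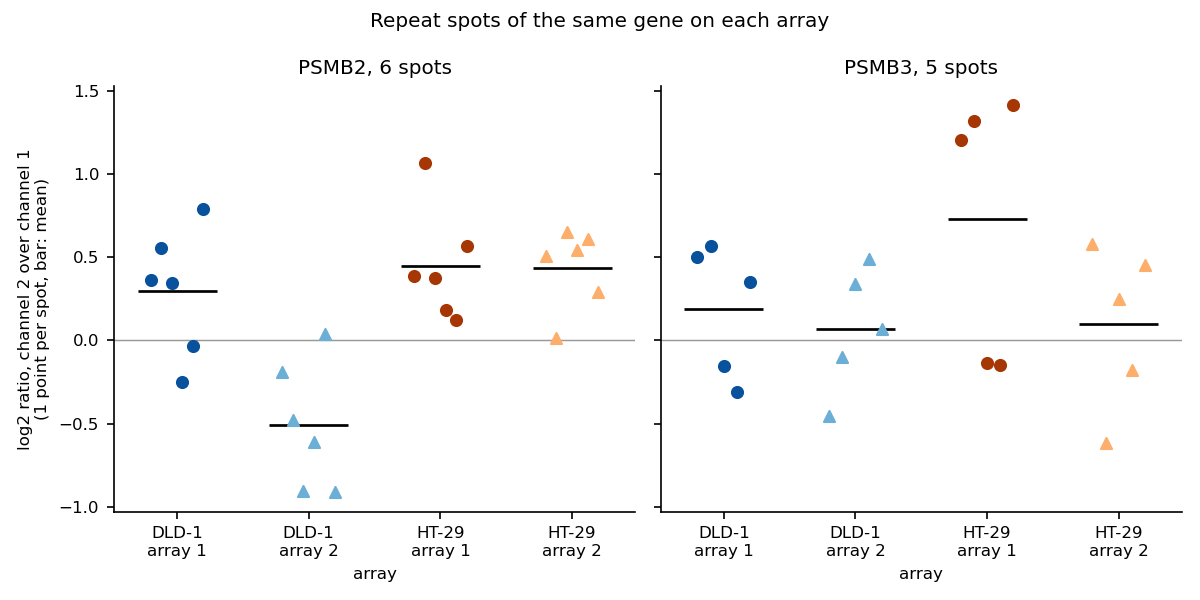
Log2 ratio of file channel 2 over channel 1 (vertical axis) of every spot of PSMB2 (6 spots, left) and PSMB3 (5 spots, right) on each of the 4 arrays, 1 point per spot, with bars for the mean. Spots of 1 gene on 1 array spread over as much as 1.56 log2 units (PSMB3 on HT-29 array 1, from −0.15 to 1.41).

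The interferon-induced subunits PSMB8, PSMB9 and PSMB10 replace PSMB5, PSMB6 and PSMB7 in the immunoproteasome, and none of the 3 had a mean far from 0 in the working reading. PSMB8 had log2 ratios of 0.22 on both DLD-1 arrays and −0.01 and −0.57 on the HT-29 arrays. PSMB9 had −0.01 and 0.18 in DLD-1 and 0.35 and 0.09 in HT-29, and its channel 1 was not above background on HT-29 array 1. Its mean was 0.15 in the working reading, the highest of the class, and 0.02 in the labels' order, the lowest. PSMB8 had the lowest mean in the working reading at −0.03, and 0.14 in the labels' order. PSMB10 had 0.72 and −1.31 in DLD-1 and 0.55 and −0.05 in HT-29, and its arrays were the farthest apart of the class. Its mean was −0.02 in the working reading and 0.66 in the labels' order, where limma gave an adjusted p of 0.21. PSMB11, the thymus-specific subunit, was not analysed here.

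The assembly chaperones PSMG1 and PSMG2 form a dimer that guides alpha ring assembly. PSMG1 had −0.26 and −1.02 in DLD-1 and 0.44 and 0.33 in HT-29, below 0 on both arrays of the first line and above 0 on both of the second. PSMG2 had 0.73 and −0.49 in DLD-1 and 0.74 and −0.25 in HT-29, the same pattern in both lines. Their means over both lines were −0.13 and 0.18, and 0.22 and 0.55 in the labels' order.

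Of the ATPases, which unfold the substrate, 3 were tested in both lines. On DLD-1 array 2, 0 of them were positive, against 44.1% of all genes. PSMC2 had the highest mean in the working reading, 0.21, from 0.11 and −0.60 in DLD-1 and 0.31 and 1.03 in HT-29. PSMC6 had the lowest, −0.06, from 0.16 and −0.34 in DLD-1 and 0.46 and −0.50 in HT-29. Their order turned in the labels' order, with 0.00 for PSMC2 and 0.36 for PSMC6. PSMC1 had 0.69 and −0.63 in DLD-1 and 0.39 and 0.18 in HT-29. PSMC4, measured in DLD-1 only, had 0.48 and −0.15. Its channel 1 was not above background on DLD-1 array 1, nor its channel 2 on DLD-1 array 2.

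The non-ATPase subunits held the 2 genes with the highest means in the working reading. PSMD6 had log2 ratios of 0.42 and −0.34 in DLD-1 and 1.78 and 0.50 in HT-29, the last pair both above 0. Its DLD-1 mean was 0.04 ± 0.54 and its HT-29 mean 1.14 ± 0.91 (SD, n = 2 hybridisations) in the working reading. With the labels' order these means were 0.38 and 0.64, and 0.51 over both lines. PSMD14, the deubiquitinase that removes ubiquitin chains from bound substrates, had 0.15 and 1.19 in DLD-1 and 1.12 and −0.27 in HT-29. Its mean was 0.55 (1.46-fold) in the working reading and 0.09 in the labels' order. Its highest values stood on a different orientation in each line. On HT-29 array 1, where PSMD14 had 1.12, its channel 1 was not above background. PSMD4 had the lowest mean of the class in both readings, −0.25 and −0.13, from −0.21 and 0.10 in DLD-1 and −0.55 and −0.32 in HT-29. PSMD12 had 0.95 and −0.28 in DLD-1 and 1.10 and −0.73 in HT-29, positive on both arrays with treated RNA in Cy5 and negative on both others. PSMD3, also a lid subunit, had 1.10 and −0.61 in DLD-1 and 0.20 and −0.01 in HT-29. On DLD-1 array 1 its channel 1 was not above background.

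Of the chaperones of the regulatory particle, PSMD9 had −0.56 and −0.20 in DLD-1 and −0.57 and −0.57 in HT-29, below 0 on all 4 arrays in the working reading. Its line means were −0.38 ± 0.25 and −0.57 ± 0.0025 (SD, n = 2 hybridisations), and its mean over both lines of −0.47 (1.39-fold lower) did not pass the limma test (unadjusted p = 0.029, adjusted p = 0.83). The mean was −0.09 in the labels' order, and with block medians set to 0 it was −0.29 with no single sign on the 4 arrays. PSMD10, also known as gankyrin, had 0.64 and −0.11 in DLD-1 and 0.24 and −1.13 in HT-29. Its mean was −0.09 and 0.53 in the 2 readings. Its channel 1 was not above background on array 1 of either line, nor its channel 2 on HT-29 array 2. PSMD5, measured in HT-29 only, had −0.51 and −0.41 there.

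PSME1 and PSME2 form the interferon-induced activator cap of the immunoproteasome, PSME3 a nuclear activator, and PSMF1 is known as an inhibitor of the core in vitro. All 4 of these had a mean below 0 in the working reading, between −0.25 and −0.04. In the labels' order all 4 were above 0, between 0.17 and 0.63. Of all 8470 genes, 4323 had a mean above 0 in the working reading and 4827 in the labels' order. PSME1 had 0.23 and −0.05 in DLD-1 and 0.25 and −0.64 in HT-29. PSME2 had 0.27 and −0.50 in DLD-1 and −0.03 and −0.73 in HT-29, with the lowest mean of the class in the working reading (−0.25) and 0.37 in the labels' order, where PSME3 was lowest. PSME3 had −0.16 and −0.12 in DLD-1 and 0.23 and −0.50 in HT-29. Every dye-exchanged value of PSME1, PSME2 and PSMF1 lay below both values of array 1. PSMF1 had 0.80 and −1.23 in DLD-1 and 0.37 and −0.12 in HT-29, the highest mean of the class in both readings (−0.04 and 0.63). PSME4, measured in DLD-1 only, had 1.03 and −0.53. Its channel 1 was not above background on DLD-1 array 1, nor its channel 2 on DLD-1 array 2.

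Genes that work with the proteasome but carry other symbols gave a similar picture. Of 31 listed genes, among them ubiquitin-activating enzymes, shuttle factors, proteasome deubiquitinases and the transcription factors NFE2L1 and NFE2L2, 23 were on the arrays and 20 were tested in both lines. In the limma test 0 rose and 0 fell in either reading, with a median mean ratio of −0.04 in the working reading and 0.21 in the labels' order. POMP, the maturation protein of the core, had the highest mean in the working reading, 0.37, from 0.51 and −0.69 in DLD-1 and 1.13 and 0.53 in HT-29, and 0.45 in the labels' order. NFE2L2, a factor that binds the antioxidant response element, had the lowest in the working reading, −0.45, from 0.51 and −1.13 in DLD-1 and 0.17 and −1.33 in HT-29, and the highest in the labels' order, 0.78 (limma adjusted p = 0.097).

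A second comparison set the average spot signal of the 2 lines side by side. This signal is the mean log2 intensity of both channels after quantile scaling between arrays, so it does not depend on which channel was treated, and it mixes treated and untreated RNA. Proteasome spots were dimmer in HT-29 than in DLD-1. The median difference, HT-29 minus DLD-1, was −0.66 over the 37 genes, against −0.17 over all genes, and 32 of 37 were below 0, against 59.5% of all genes. Over the 2165 genes of like signal the median was −0.23 and 63.2% were below 0. Lines were 1 replicate each, so there is no test.

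The position of the printed block moved with this signal, and accounted for 59.5% of the variance of the signal of HT-29 array 2 minus array 1, against 27.4% for the DLD-1 arrays. Before quantile scaling, the signals of single spots on the 2 HT-29 arrays had r = 0.41 over all probes (DLD-1 0.66). Over the 37 proteasome genes, after scaling and with spots averaged, r was 0.22 for the HT-29 arrays, against 0.79 for the DLD-1 arrays. The values for probes and for proteasome genes are therefore not directly comparable. The median gap between the 2 HT-29 arrays was 0.87 log2 units over the proteasome genes (DLD-1 0.46) and also 0.87 over all genes (DLD-1 0.53). With the medians of all blocks set equal on each array, a step added after this pattern was seen, the median difference was −0.46 over the 37 genes and 0.03 over all genes. Again 32 of 37 were below 0, against 48.4% of all genes and 43.4% of the genes of like signal. The median gap between arrays was then 0.52 in HT-29 and 0.63 in DLD-1 over the proteasome genes. Over all genes it was 0.57 and 0.52. Relative to the median of all genes the proteasome genes lay 0.49 log2 units lower with either scaling, and 0.63 lower with median scaling in place of quantile scaling.

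Taking a gene as lower when both HT-29 arrays lay below both DLD-1 arrays and the difference was at least 2-fold, 8 of 37 genes were lower in HT-29, against 9.57% of all genes, and 0 higher, against 4.52%. These were PSMB5, PSMB6, PSMB9, PSMC1, PSMC6, PSMD6, PSMG1 and PSMG2. With block medians set equal there were again 8, against 5.49% of all genes, and 0 higher, against 4.92%, but PSMA3, PSMA7 and PSMD14 took the place of PSMB5, PSMB6 and PSMG2. PSMB9, PSMC1, PSMC6, PSMD6 and PSMG1 were counted both ways. Median scaling gave 15 lower genes, against 13.9% of all genes. With 1 array left out the arrays of the lines separate more easily for any gene. Leaving out HT-29 array 1 gave 13 lower genes of 38 (22.4% of all genes) and 2 higher (15%), and leaving out HT-29 array 2 gave 13 of 38 (16.8%) and 0 (7.45%). Leaving out DLD-1 array 1 gave 11 of 38 (10.8%) and 0 (9.28%), and leaving out DLD-1 array 2 gave 9 of 37 (15.3%) and 1 (9.26%). Without the 2-fold minimum, 15 genes had both HT-29 arrays below both DLD-1 arrays (21.5% of all genes) and 0 the reverse (11.0%). With block medians set equal these counts were 17 (16.9%) and 2 (17.2%), the last pair being PSMB10 and PSMD3.

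PSMD6 had the largest difference. Its log2 average signal was 13.39 and 13.18 on the DLD-1 arrays and 10.91 and 10.89 on the HT-29 arrays, and the gap between the lines was many times that between arrays of a line. The difference was −2.39 (5.24-fold lower in HT-29), and −2.76 (6.77-fold) with block medians set equal. PSMC1 had 12.12 and 12.65 in DLD-1 against 11.00 and 10.09 in HT-29. Its difference was −1.84, and −2.08 with block medians equal. PSMC6 had 12.71 on both DLD-1 arrays against 11.47 and 9.22 in HT-29, where the arrays disagreed by more than the closer one lay from DLD-1, with differences of −2.36 and −1.56. PSMG1 had 12.56 and 12.77 against 11.49 and 9.80, with −2.02 and −1.19.

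The immunoproteasome gene PSMB9 had signals of 10.84 and 10.29 in DLD-1 and 9.13 and 9.74 in HT-29. Its channel 1 was not above background on HT-29 array 1. The difference was −1.13 (2.19-fold lower in HT-29), and −1.64 with block medians equal. PSMB8 had 11.40 and 10.96 in DLD-1 and 9.94 and 11.63 in HT-29, so its lines overlapped. With block medians equal PSMB8 had 11.98 and 11.13 in DLD-1 and 11.03 and 10.74 in HT-29. Both HT-29 arrays then lay below both DLD-1 arrays, with a difference of −0.67. PSMB10 went the other way, with 11.49 and 11.21 in DLD-1 and 11.49 and 12.16 in HT-29, a difference of 0.48, and 0.94 with block medians equal. PSMB5 and PSMB6, the constitutive counterparts of PSMB8 and PSMB9, differed by −1.40 and −1.44, and by −0.99 and −0.87 with block medians equal. The activator genes PSME1 and PSME2, which cap the immunoproteasome, differed by 0.54 and −0.27, with overlapping arrays, and PSME3 by −0.96, also with overlap. With block medians equal the differences of PSME1, PSME2 and PSME3 were −0.07, −0.26 and −0.45. PSME3 then had both HT-29 arrays below both DLD-1 arrays. PSMA7, an alpha ring gene, and PSMD14 were lower in HT-29 only after the blocks were set equal, since HT-29 array 2 (14.17 for PSMA7, 13.22 for PSMD14) had lain above at least 1 DLD-1 array before.

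**Figure D5:**
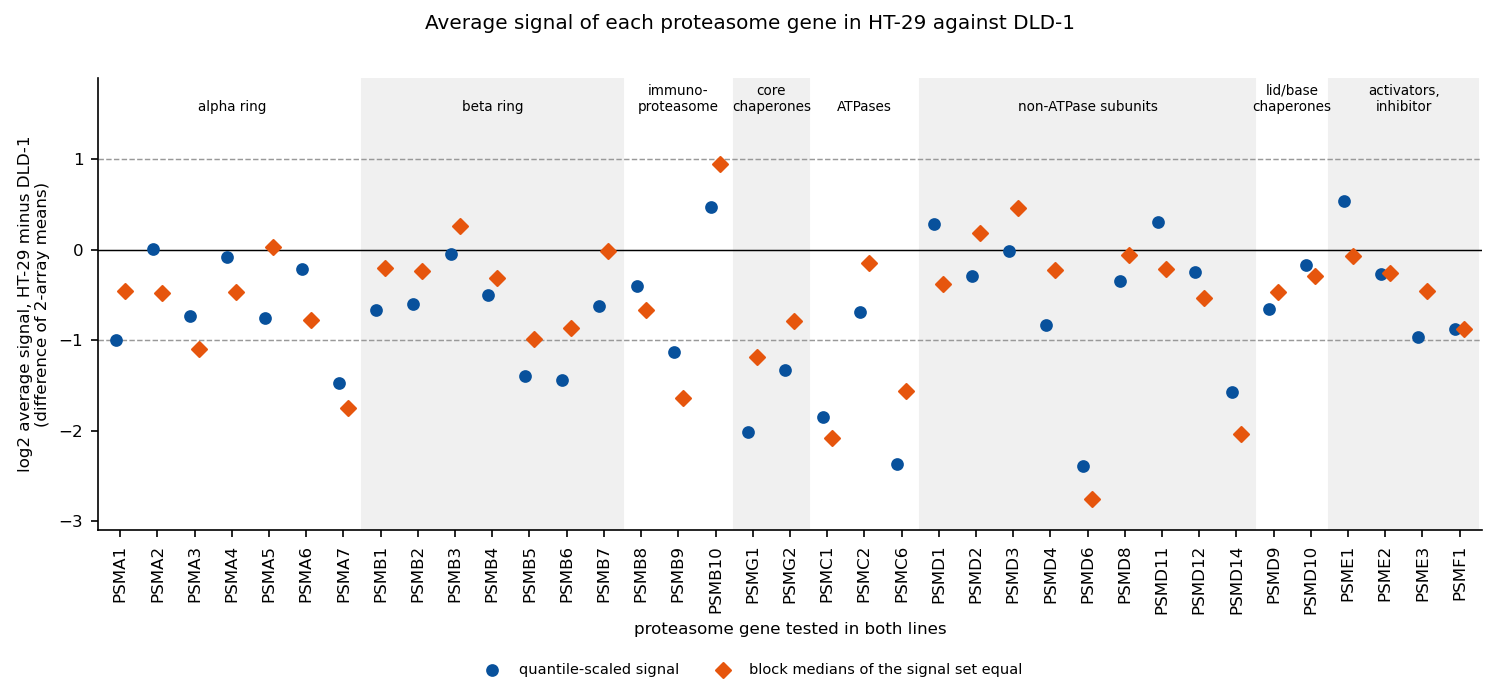
Difference of the log2 average signal, HT-29 minus DLD-1 (vertical axis, difference of 2-array means), of the 37 proteasome genes tested in both lines, grouped by role, after quantile scaling (circles) and with block medians set equal (diamonds), with dashed lines at a 2-fold difference. With each scaling 32 of 37 genes lie below 0, with PSMD6 at −2.39 and −2.76, and PSMB10 lies highest among diamonds at 0.94.

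With RNA averaged over a whole culture, fewer expressing cells and less RNA per cell cannot be told apart, and the signal of 1 spot is compared only with the same spot in the other line.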

How the data were processed

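The deposited scanner files give, per spot, each channel's intensity, local background and background SD, and intensities after background subtraction by the authors. The deposited series table holds the authors' log2 ratios, used as an alternative. The scanner and its software: not given in the sources used here. Per the labels, amino allyl aRNA was coupled to Cy3 or Cy5.

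In R 4.3.3 with limma 3.58.1, intensities were corrected with normexp (offset 50) and loess within arrays. Of 30336 spots, 696 controls and 49 bad spots were left out. Platform symbols (14200 spots with 1, 447 with several, 14993 with none) were updated with GRCh38.p14 names. Spots of a gene were averaged. For each gene limma's lmFit and eBayes compared the 2 line means with 0 (two-sided, adjusted p under 0.05). The fit gave all genes the same SE, 0.217 in the working reading and 0.239 in the labels' order. Its p-values therefore order genes by the size of the mean and do not hold a gene's own spread. Exact sign flips of 2 values reach p = 0.5 at best. Signals were scaled with Aquantile. Steps were tested on simulated data. Windows were searched with Python 3.11.15 and pandas 2.3.3. PSMC5 and PSMD7, named only by scanner descriptions, were an alternative.

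Members, lists and settings were chosen with earlier results of these data known. Genes were named with values if past the test, of 1 sign on all arrays, highest or lowest of a role, called within or between lines, or immunoproteasome or PSME1 to PSME3 genes. Genes beyond this rule (PSMA3, PSMA7, PSMB2, PSMC4, PSMD5 and PSME4 among them) were chosen after their values were seen.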

Additional observations from a re-analysis of the deposited data

Results flagged for a closer look

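PSMB8 and PSMG1 were of opposite sign in the 2 lines on every array in the working reading, a difference that was not tested. PSMB8, the interferon-induced counterpart of PSMB5, averaged 0.22 on the DLD-1 arrays and −0.29 on the HT-29 arrays (log2 ratio), so HT-29 minus DLD-1 was −0.51, though its HT-29 array 1 value was only −0.01. PSMG1, the alpha ring assembly chaperone, averaged −0.64 and 0.39, a difference of 1.02. This was 2 of 37 proteasome genes, against 7.87% of all genes. In the labels' channel order neither gene did so, and PSMA4, PSMB4 and PSMD2 did (3 of 37, against 12.1% of all genes).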

How the results depend on the processing

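In the working reading 16 genes of the whole array were higher and 4 lower, and the proteasome median was 0.06. In the labels' channel order these were 56, 2 and 0.30, with 11 proteasome genes positive and 0 negative on all arrays. With block medians set to 0 they were 2 and 0 for all genes, with 3 positive proteasome genes. The authors' subtracted intensities gave 7 and 1, the deposited log2 ratios 9 and 0, and no filter on dim spots 31 and 7. Both channels above background gave 1 lower and median centring 2 lower. Positive proteasome genes numbered 0 of 33 with the deposited log2 ratios and 0 of 37 with the brightest spot of a gene. The shares of all genes positive in these settings were not determined. Median scaling of the signal gave 15 proteasome genes lower in HT-29 and a median of −0.96. No setting with all 4 arrays called a proteasome gene, and the cause of these moves was not tested. The sign of the mean, with no call, changed for 15 of 37 proteasome genes in the labels' order and for 8 of 37 with block medians set to 0. The share of all genes that changed sign was not determined, so these counts show nothing particular to the proteasome genes. Leaving out 1 array gave 8 to 299 higher and 0 to 128 lower genes, 0 to 2 proteasome genes higher and 0 lower, a median of −0.15 to 0.21, 1 to 9 proteasome genes positive and 1 to 5 negative throughout, 2 to 5 at 2-fold in DLD-1, 2 to 7 in HT-29 and 2 to 7 on array 1 of both lines (1 array then decides a call), and 9 to 13 lower and 0 to 2 higher in HT-29 signal. No paired analysis was possible because each array already held treated with untreated RNA and array numbers of the lines mark dye orientation.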
